A study of Danio rerio with 8 samples.

Results

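The genes described here encode the arginases, the urea cycle enzymes, 2 further ornithine-consuming enzymes and glutamine synthetase of the zebrafish (Danio rerio). They are arg1, arg2, otc, cps1, ass1, asl, odc1, oat, glula and glulb. All 10 were found by symbol among the 31953 genes of the deposited count table, and all 10 passed the filter on low counts. They were chosen by name, with the fold changes and calls of an earlier analysis of the same libraries in view. Values and adjusted p-values printed for them are therefore a description of these libraries and not independent evidence. RNA came from embryos kept for 72 h under control conditions (3 libraries), in high glucose (3 libraries) or in high salt (2 libraries). Rearing by a standard protocol was common to the groups, and no strain, stage at the start or dose was named. The labels also left unsaid whether libraries of a group came from separate clutches, so a p-value here measures the spread between libraries, which may be technical.

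In the urea cycle as known in mammals, carbamoyl-phosphate synthetase (cps1) and ornithine transcarbamylase (otc) fix ammonia onto ornithine in the mitochondrion. Argininosuccinate synthetase (ass1) and lyase (asl) then build arginine, and arginase splits it into urea and ornithine. Ornithine is also the start of other routes: ornithine decarboxylase (odc1) turns it into putrescine, the first polyamine, and ornithine aminotransferase (oat) turns it into a precursor of glutamate and proline. Glutamine synthetase (glula, glulb) binds ammonia to glutamate. Fish excrete most waste nitrogen as ammonia, and teleost embryos also make urea. In mammals arginase 1 is the liver enzyme of the cycle and arginase 2 a mitochondrial enzyme found in many other tissues.

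Libraries are named by group and by the suffix of their column, which was 1m, 2f or 2m and had no 2f in salt. No label gave its meaning. Totals ran from 14.65 M to 17.32 M counts, so that 3 counts equalled 0.171 to 0.226 CPM (counts scaled to a common, TMM-adjusted library total). In an earlier analysis of these data control 1m and high salt 2m stood apart from the other libraries, and results that rest on them are given with and without them. Markers of larval tissues (9 genes, among them the skin keratin gene krt4 and the muscle gene mylpfa) summed to 19680 to 26540 CPM in control, 22020 to 25470 in glucose, and 15640 and 19780 in salt. Of this krt4 alone gave 12890 to 19900 CPM, and the lens gene cryaa was at 0 in 1 library. In salt against control 2 of the 9 had positive and 7 negative changes, with 0 at an edgeR adjusted p under 0.05. Against salt, mylpfa was higher in glucose (log2 1.35 ± 0.33, edgeR adjusted p = 0.047). Liver markers (10 of 10 found) summed to 3083 to 3917 CPM in control, 3712 to 3879 in glucose and 3387 to 4581 in salt. However, the defining hepatocyte marker fabp10a had 0 to 4 counts in each library, and gc and hpda were at 0 in at least 1.

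Levels of the 10 genes can be compared with each other only per kilobase of gene model. On this scale (CPM per kb, mean ± SD, n = 3) the order was glulb (169 ± 63.3), odc1 (131 ± 25.4), glula (76.1 ± 16.7), ass1 (19.9 ± 4.22), arg2 (12.5 ± 2.64), asl (7.13 ± 2.30), otc (6.02 ± 1.59), oat (2.29 ± 0.47), cps1 (1.49 ± 1.3) and arg1 (0.155 ± 0.222). Neighbours in this order whose control libraries overlapped were glulb and odc1, asl and otc, and oat and cps1. In high salt (n = 2) the order of levels became glulb, arg2, glula, odc1, oat, ass1, asl, otc, cps1 and arg1. There arg2 stood at 95.8 ± 89.7 CPM per kb beside 85.7 ± 6.45 for glula, with overlapping values, and oat at 16.0 ± 8.54 overlapped ass1 at 12.9 ± 2.01. In high glucose arg2 was seventh, at 6.38 ± 1.54 CPM per kb, within the range of otc (5.88 to 7.29). The gene model of ass1 lay on the unplaced scaffold KN150552.1 and was only 903 bases long, which bears on its value per length.

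**Figure D1:**
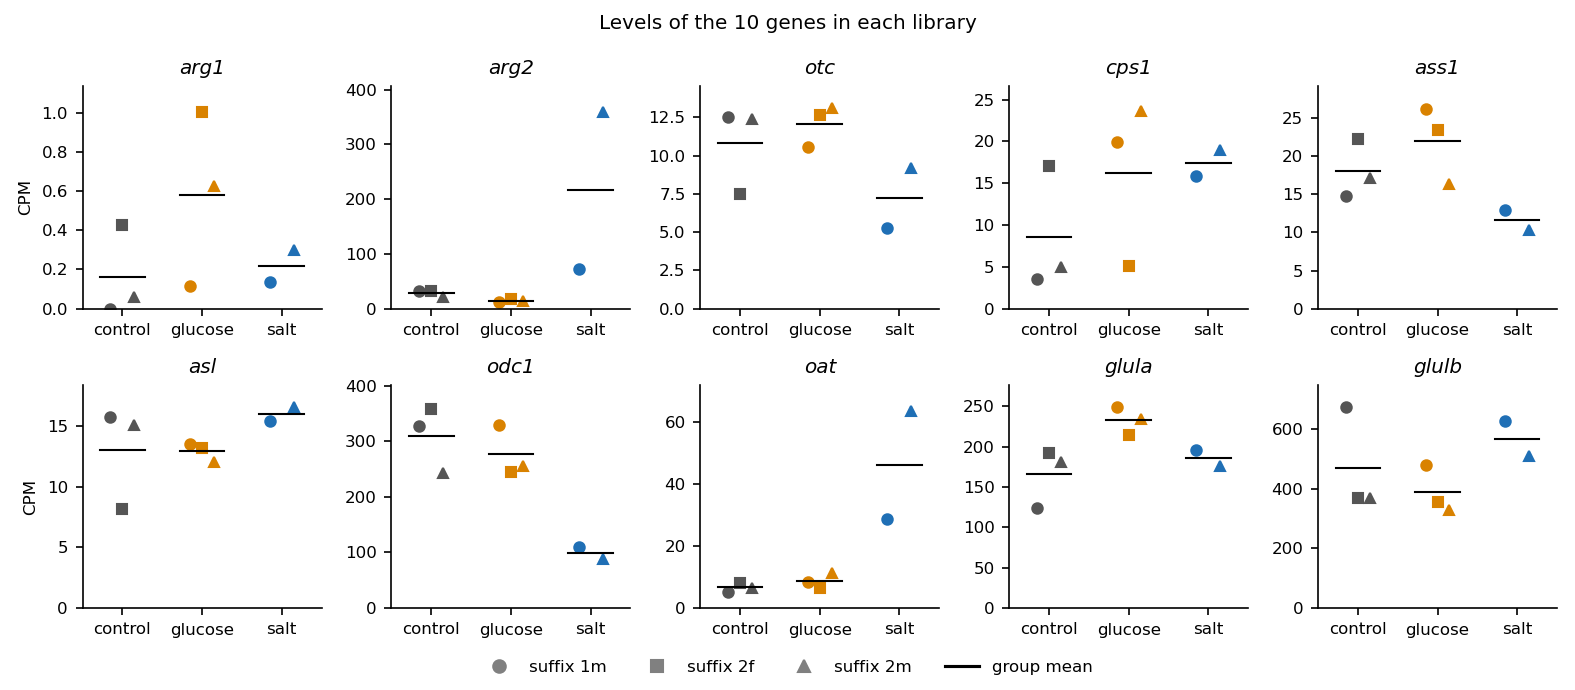
Level of each of the 10 genes (y axis, CPM, linear from 0) in every library by group (x axis), with symbols for the column suffix and a line at the group mean. In high salt arg2 (73.1 and 359.3 CPM) and oat (28.6 and 63.5 CPM) lie above all other libraries, and odc1 (109.9 and 87.7 CPM) lies below them.

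Embryos in high salt were first set against controls, the comparison that shows which transcripts differ with raised salt. The arginase gene arg2 and the aminotransferase gene oat rose, the decarboxylase gene odc1 fell, and the other 7 genes did not pass. The first was arg2 (chromosome 13, 32894097 to 32903924, plus strand), at 31.4, 31.8 and 21.3 CPM in control 1m, 2f and 2m and at 73.1 and 359.3 CPM in salt 1m and 2m. Both salt libraries stood above every control library, and the 2m library was 4.92 times the 1m library. Its log2 fold change was 2.94 ± 0.52 (SE; adjusted p = 0.020, edgeR quasi-likelihood, Benjamini-Hochberg over all genes tested).

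Levels of oat (chromosome 12, 46944390 to 47087271, plus strand) were 5.26, 7.99 and 6.57 CPM in control 1m, 2f and 2m, and 28.6 and 63.5 CPM in salt 1m and 2m. The groups did not overlap, and the change was 2.80 ± 0.37 on the log2 scale (edgeR adjusted p = 0.0077). For odc1 (chromosome 17, 51654873 to 51668516, plus strand) the controls stood at 328.6, 358.1 and 242.6 CPM and the salt libraries at 109.9 and 87.7 CPM. Here the salt libraries were below every control library and close to each other, and the gene fell by 1.65 ± 0.24 on the log2 scale (edgeR adjusted p = 0.011). In bulk RNA, fewer cells expressing a gene and less RNA of it per cell cannot be told apart.

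So 2 of the 10 genes passed as higher and 1 as lower, where 2.94% of all 20562 tested genes were higher and 2.41% lower (5.35% in either direction). As the genes were chosen with this comparison in view, nothing is read from that count. Their median log2 fold change was 0.29, beside -0.04 over all genes tested, and for the same reason nothing is read from it. The count of all genes called was 1101, or 2550 with the suffix as a replicate block, and the same 3 of the 10 genes passed in the blocked fit (2.81 for arg2, 2.69 for oat and -1.63 for odc1). Of the calls, 55% were higher, and 44.2% with scaling by library totals alone.

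Single libraries carried some of these calls. Without salt 2m all 3 genes missed the threshold, with log2 fold changes of 1.38 for arg2 (edgeR adjusted p = 0.14), 2.12 for oat (0.070) and -1.49 for odc1 (0.14), the lone salt library being assumed to vary like the other groups. For arg2 the edgeR adjusted p was also 0.064 without control 2f and 0.070 without control 2m. Without control 1m and salt 2m together oat passed (1.995, edgeR adjusted p = 0.028), while arg2 (1.48, 0.053) and odc1 (-1.43, 0.056) did not. When only salt and control were fitted, oat passed (0.035), and arg2 (0.091) and odc1 (0.064) did not. Over the 16 alternatives each gene kept its direction, with changes of 1.38 to 3.69 for arg2, 1.995 to 3.28 for oat and -1.80 to -1.43 for odc1, and DESeq2 called all 3.

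**Figure D2:**
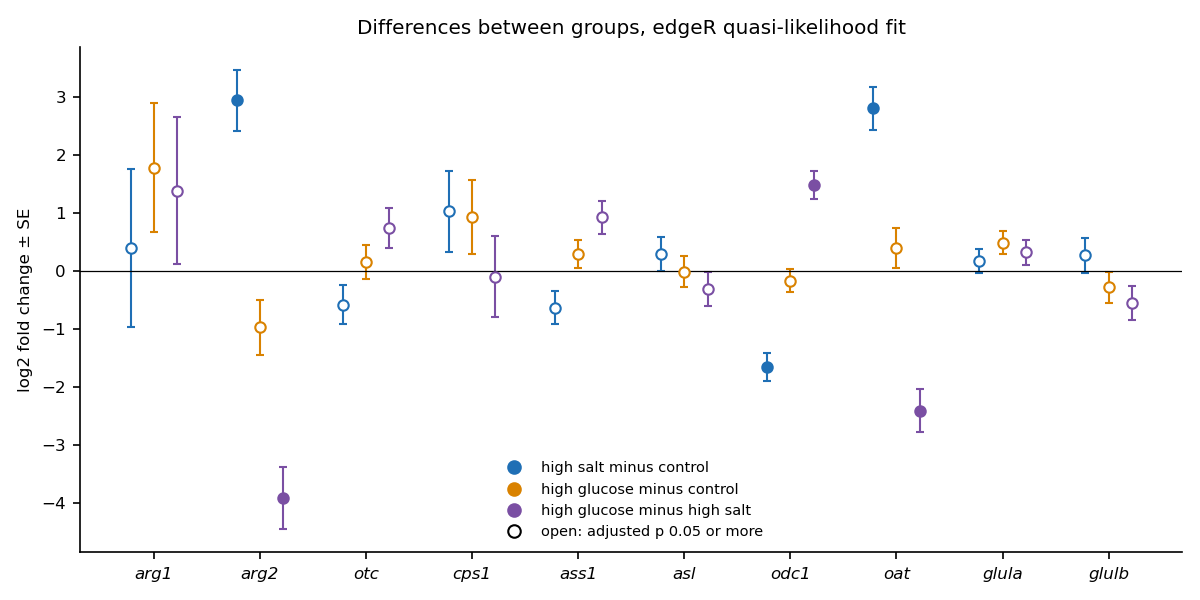
Log2 fold change ± SE (y axis) of each gene (x axis) for the 3 comparisons from the fit over all 8 libraries, with filled points where adjusted p was under 0.05. Only arg2, oat and odc1 have filled points, in the comparisons of salt with control (2.94, 2.80 and -1.65) and of glucose with salt (-3.91, -2.40 and 1.49).

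Levels of these 3 genes were also set against each other inside each library, which does not depend on how libraries are scaled. The ratio of arg2 to odc1, per length, was 0.100, 0.0929 and 0.0919 in control 1m, 2f and 2m, and 0.036, 0.0776 and 0.0559 in the glucose libraries. It was 0.695 in salt 1m and 4.28 in salt 2m, where arg2 exceeded odc1. The corresponding ratio of oat to odc1 was 0.0131 to 0.0221 in control, 0.0209 to 0.0363 in glucose, and 0.213 and 0.592 in salt. Of the summed level per length of all 10 genes, odc1 made up 28.2% to 35.6% in control, 27.2% to 29.1% in glucose, and 10.8% and 7.27% in salt 1m and 2m. The share of arg2 went from 2.59% to 3.31% in control to 7.49% and 31.1% in salt. These ratios were computed after the changes had been seen and describe them on another scale.

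**Figure D3:**
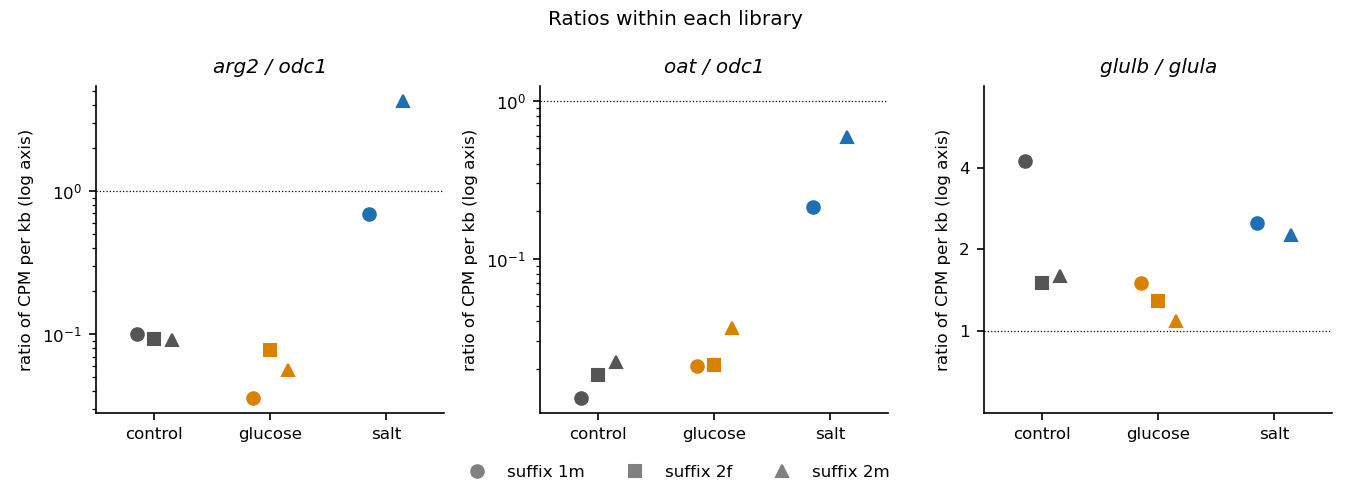
Ratio of 2 genes' levels per kilobase within each library (y axis, logarithmic) by group (x axis), for arg2 over odc1, oat over odc1 and glulb over glula, with a dotted line at 1. Salt libraries lie above all others in the first 2 panels, and control 1m (4.25) lies highest in the third.

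Of the 4 enzymes of the urea cycle before arginase, otc, cps1, ass1 and asl, 0 passed in salt by edgeR and 0 by DESeq2. An unadjusted p under 0.05 was found for 1 of them, ass1, in edgeR. For otc (chromosome 9, 30457294 to 30463666) the levels were 12.5, 7.50 and 12.4 CPM in control, and 5.29 and 9.20 CPM in salt. The groups overlapped, with a log2 fold change of -0.58 ± 0.34. Levels of ass1 were 14.8, 22.2 and 17.1 CPM in control, and 12.9 and 10.3 CPM in salt. Both salt libraries were below every control library, yet the difference of -0.63 ± 0.28 did not pass (edgeR adjusted p = 0.19). For asl (chromosome 21, 31216455 to 31237784) the salt libraries, at 15.4 and 16.6 CPM, overlapped the controls at 15.7, 8.17 and 15.1 CPM (0.30 ± 0.29).

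Levels of cps1 (chromosome 9, 39217328 to 39328048), the entry enzyme of the cycle, varied widely inside the control and glucose groups. It stood at 3.57, 17.1 and 4.94 CPM in control 1m, 2f and 2m, and at 19.9, 5.14 and 23.7 CPM in glucose 1m, 2f and 2m. Thus control 2f was high among the controls and glucose 2f low among the glucose libraries, a highest-to-lowest ratio of 4.78 in control and 4.61 in glucose. Between libraries of one suffix the log2 ratio of glucose to control was 2.48, -1.73 and 2.26 for 1m, 2f and 2m. Of the salt libraries, 1m at 15.9 CPM lay inside the control range and 2m at 19.0 CPM above it, and the fitted changes were 1.03 ± 0.70 in salt and 0.93 ± 0.63 in glucose (edgeR adjusted p = 0.38 and 0.76). Without control 1m they were 0.66 and 0.56, and without control 2f they were 2.03 and 1.93 (edgeR adjusted p = 0.11 and 0.55).

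Almost no arg1 RNA was counted. Libraries held 0, 7 and 1 counts in control, 2, 16 and 10 in glucose, and 2 and 4 in salt, for a gene model of 1041 bases (chromosome 12, 9559308 to 9579927, minus strand). Several of these counts are at or below 3, and no difference was detectable at this depth. In libraries with arg1 counts the level of arg2 per length was 8.36 to 549.4 times that of arg1. Of the 10 liver markers, fabp10a, gc and hpda were also near 0. The 7 others passed the filter on low counts, among them tfa and apoa2 with control means of 997.4 and 2103 CPM. The relation of arg1 to these markers was not tested.

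Macrophages and neutrophils are cells in which arginase genes are known to be active. Their marker list (10 of 10 found) summed to 63.9 to 289.5 CPM in control, 166.4 to 337.5 in glucose, and 108.7 and 273.0 in salt, with marco at 0 in at least 1 library. In salt the sums lay within the control range, whereas arg2 did not. That range was wide, from 63.9 CPM in control 1m to 289.5 CPM in control 2m, and lyz alone gave 131.2 CPM of the sum in salt 2m. Members differed: of the 9 tested, 6 had positive and 3 negative changes in salt against control, and 0 passed by edgeR. Salt 2m had the larger sum of the salt libraries and also the higher arg2 level. In control the order was otherwise: 2m had the highest sum (289.5 CPM) and the lowest arg2 level (21.3 CPM). Glucose 2m had the highest sum of all libraries (337.5 CPM), with arg2 at 13.7 CPM. The part of these cells in the arg2 result was not tested.

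The glutamine synthetase genes are a duplicated pair. In glucose glula (chromosome 2, 19339343 to 19343286) stood at 249.5, 214.6 and 233.9 CPM, above each control library (124.0, 191.7 and 181.0 CPM). With 0.49 ± 0.19 on the log2 scale this had an unadjusted p of 0.029 and did not pass (edgeR adjusted p = 0.76). Without control 1m, the lowest library, the change was 0.32. The salt libraries, at 196.4 and 176.6 CPM, overlapped the controls (0.17 ± 0.21). Glutamine synthetase marks radial and Müller glia, and the glial marker list (8 of 8 found, none at 0) summed to 176.9, 418.7 and 586.0 CPM in control 1m, 2f and 2m. Its sums were 431.8, 650.4 and 795.8 CPM in glucose, and 372.8 and 615.0 CPM in salt. The sums hide how members differed. Against control in glucose 7 had positive changes and 1 a negative change (median log2 fold change 0.47), and 0 passed by edgeR. In salt 6 had positive and 2 negative changes. Of the 8 only her4.1 passed in salt, as lower (-2.78 ± 0.63, edgeR adjusted p = 0.039). Control 1m was lowest for both glula and the list. Control 1m was also lowest for marker sums of macrophages and neutrophils (63.9 CPM), intestine and yolk layer (4194 CPM) and pronephros (120.6 CPM). Its larval tissue sum (19680 CPM) was the lowest of the controls, though above that of salt 1m (15640 CPM). Its liver sum (3917 CPM) was the highest of the controls. The intestine and yolk layer sum was mostly apobb.1, at 3010 CPM in control 1m and 6089 and 4849 CPM in control 2f and 2m. Of its other genes fabp2, fabp1b.1, apoa4b.1 and anpepa were highest among the controls in control 1m, and cdx1b had 0 counts there. The part of glial cells in the glula values was not tested.

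The other copy, glulb (chromosome 6, 23709354 to 23714601), had the highest mean level per length of the 10 genes in every group. Its range overlapped that of odc1 in control and in glucose, and in control 2f odc1 was higher (151.8 against 132.8 CPM per kb). Levels of glulb were 673.3, 369.3 and 367.8 CPM in control, 480.0, 353.5 and 326.7 CPM in glucose, and 625.5 and 508.6 CPM in salt. In each group the 1m library was the highest, and the control 1m value exceeded all salt values. Neither difference from control passed (0.27 ± 0.30 in salt, -0.28 ± 0.27 in glucose, edgeR adjusted p = 0.61 and 0.81). Without control 1m both salt libraries lay above both remaining controls, and the changes were 0.63 in salt and 0.07 in glucose, which did not pass either (edgeR adjusted p = 0.12 and 1). The salt change was 0.42 without salt 2m and 0.78 without both libraries (edgeR adjusted p = 0.65 and 0.13). Per length glulb stood at 4.25 times glula in control 1m, 1.51 and 1.59 times in control 2f and 2m, 1.09 to 1.51 times in glucose, and 2.49 and 2.25 times in salt. How reads that match both copies were counted was not given in the sources used here.

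Embryos in high glucose were set against the same controls. None of the 10 genes passed by edgeR's quasi-likelihood test or by DESeq2, and 1 of them (glula) had an unadjusted p under 0.05 in edgeR. Over all genes 0% were called by edgeR (0 higher, 0 lower, 1227 at an unadjusted p under 0.05), 93 genes by DESeq2 and 36 with the suffix as a replicate block. In glucose arg2 was at 11.4, 18.2 and 13.7 CPM, below each control library, with a change of -0.97 ± 0.48 (edgeR adjusted p = 0.76). Between libraries of one suffix the log2 ratios of glucose to control were -1.47, -0.81 and -0.64 for 1m, 2f and 2m. Their shared sign follows from the groups not overlapping, under any pairing, and is no further support. The change of arg2 stayed between -1.17 and -0.83 over the 16 alternatives, with an adjusted p of at least 0.36 (edgeR or DESeq2). In glucose oat (8.44, 6.33 and 11.3 CPM, 0.40 ± 0.34) and odc1 (329.9, 244.7 and 255.2 CPM, -0.16 ± 0.21) overlapped the controls. For otc, ass1 and asl the changes were 0.16 ± 0.29, 0.29 ± 0.25 and -0.01 ± 0.26, with overlapping groups.

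High glucose was set against high salt directly, in the same fit. Against salt, arg2 was lower by -3.91 ± 0.54, oat lower by -2.40 ± 0.37 and odc1 higher by 1.49 ± 0.24 on the log2 scale (edgeR adjusted p = 0.0087, 0.012 and 0.016). These are 2 of the 10 genes lower and 1 higher, where 3.05% of all tested genes were lower and 1.9% higher (4.95% in either direction). The salt libraries are the same as in the comparison with control, so this is no separate evidence on salt. A further gene, ass1, stood at 26.2, 23.5 and 16.4 CPM in glucose, above both salt libraries, with a difference of 0.92 ± 0.28 (edgeR adjusted p = 0.086; 0.040 by DESeq2).

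Without glucose 2f all 3 genes missed the threshold (edgeR adjusted p = 0.053 for arg2, 0.078 for oat and 0.065 for odc1). Of the 10 genes only arg2 passed without glucose 1m (0.044) or without salt 2m (0.028, with a change of -2.36), and only oat passed without glucose 2m (0.047). The count over all genes was 1017, and 1857 with the replicate block.

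Beyond the 10 genes, a wider list of 68 symbols covered the supply of the cycle, polyamines, nitric oxide and creatine, proline, glutamine and glutamate, and ammonia and urea transport. Of these 58 were found, on 59 rows of the table because nos1apa has a pair, and 54 rows passed the filter. In salt 4 rose and 3 fell, beside 2.94% and 2.41% of all genes, and the median over the 54 was -0.04, beside -0.04 over all genes tested. Among 14 polyamine genes 2 rose and 2 fell. Among 15 genes of glutamine and glutamate 1 rose and 1 fell, with a median of 0.36. The 4 proline genes all had negative log2 fold changes (median -0.79, lowest edgeR adjusted p 0.087).

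The rises among polyamine genes were those of sat1a.1 and oaz1b. The first encodes spermidine/spermine acetyltransferase, which starts polyamine breakdown and export (chromosome 5, 3999159 to 4040700). Its levels were 9.55, 10.7 and 13.1 CPM in control, 9.13, 12.2 and 8.01 CPM in glucose, and 71.7 and 248.4 CPM in salt. Both salt libraries stood above all 6 others, and the change was 3.85 ± 0.44 on the log2 scale (edgeR adjusted p = 0.0045). It passed in all 16 alternatives, with changes of 2.61 to 4.50.

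Antizyme is a protein that binds ornithine decarboxylase and sends it to the proteasome. The antizyme gene oaz1b (chromosome 21, 698880 to 710497) had the deposited biotype polymorphic pseudogene. Whether its RNA yields a working antizyme was not tested. Levels of oaz1b were 292.3, 241.0 and 221.1 CPM in control, and 627.6 and 1658 CPM in salt, and the gene rose by 2.18 ± 0.34 (edgeR adjusted p = 0.014). The other antizyme copy oaz1a differed by -0.04, and oaz2a and oaz2b by 0.37 and 0.19. Antizyme inhibitor frees the decarboxylase from antizyme. Of its genes, azin1b (chromosome 19, 33343356 to 33356930) fell from 264.2 ± 45.0 to 130.1 ± 9.18 CPM (-1.02 ± 0.19, edgeR adjusted p = 0.024). The copy azin1a differed by -0.30 ± 0.21 and did not pass (edgeR adjusted p = 0.389). The spermine oxidase gene smox (chromosome 1, 41147988 to 41164822) fell from 59.9 ± 1.56 to 28.3 ± 6.65 CPM (-1.08 ± 0.22, edgeR adjusted p = 0.030). The polyamine synthesis genes downstream of odc1, amd1, srm and sms, differed by 0.44, 0.15 and -0.25 and did not pass. Neither did a further acetyltransferase gene, sat1b, whose groups overlapped (0.87 ± 0.52, edgeR adjusted p = 0.325).

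**Figure D4:**
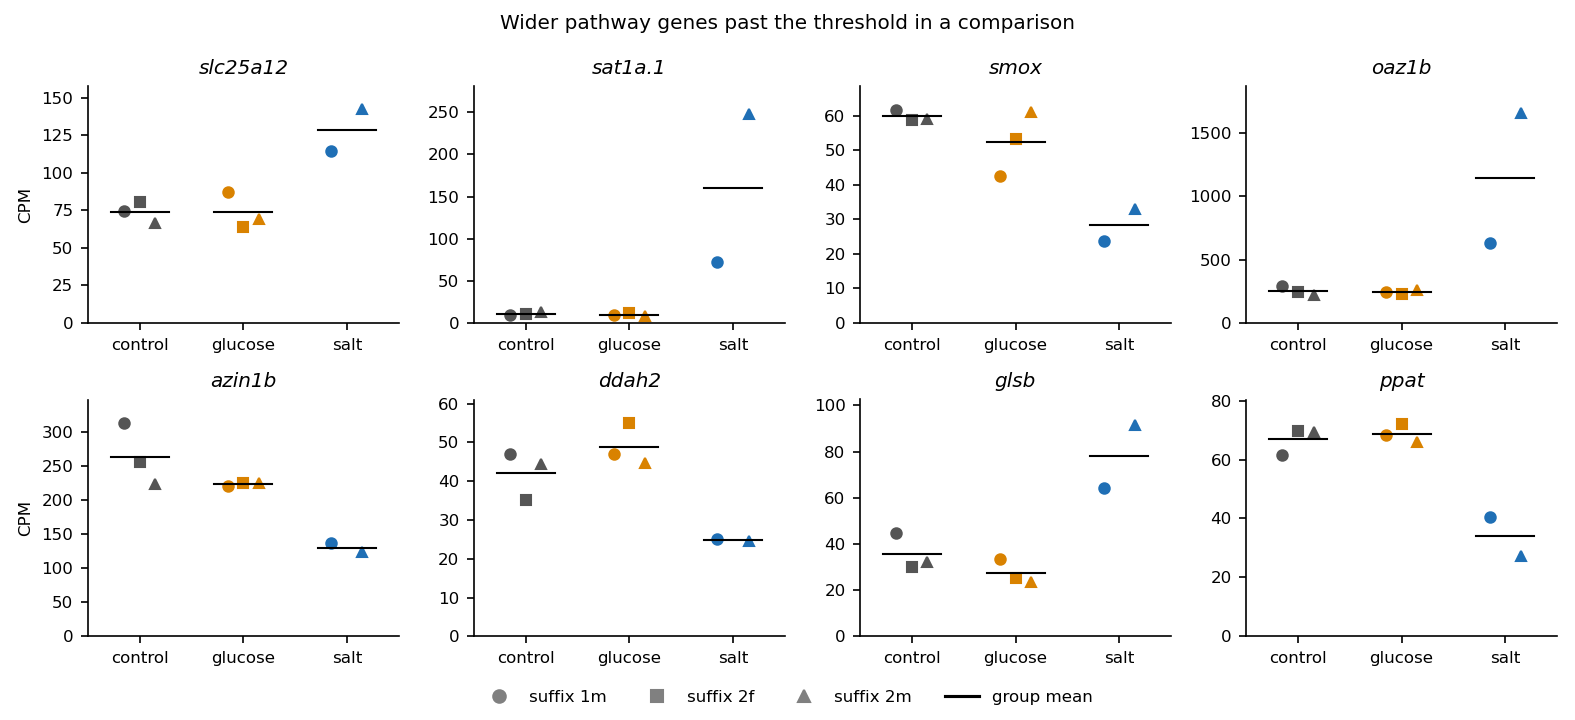
Level (y axis, CPM, linear from 0) by group (x axis) of the 8 wider pathway genes that passed in a comparison, with symbols for the column suffix and a line at the group mean. In sat1a.1, oaz1b, glsb and slc25a12 both salt libraries lie above all others, and in smox, azin1b, ddah2 and ppat below them.

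On the glutamine side, the glutaminase gene glsb (chromosome 9, 41471444 to 41549567), whose product releases ammonia from glutamine, rose from 35.7 ± 7.81 to 77.9 ± 19.2 CPM (1.13 ± 0.25, edgeR adjusted p = 0.038). The gene ppat (chromosome 20, 25726782 to 25740418), for the amidotransferase that spends glutamine at the first step of purine synthesis, fell from 66.9 ± 4.75 to 33.9 ± 9.25 CPM (-0.98 ± 0.21, adjusted p = 0.032). The seventh gene past the threshold was slc25a12, named although the naming rule stopped at 6. It encodes a mitochondrial aspartate/glutamate carrier and rose from 73.9 ± 7.01 to 128.4 ± 19.7 CPM (0.80 ± 0.20, edgeR adjusted p = 0.048; 0.066 with library totals alone).

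Most of these calls moved with single libraries. Without control 2f, control 2m or salt 2m only sat1a.1 of the 54 rows passed, and for oaz1b edgeR's adjusted p was then 0.054, 0.057 and 0.070. Its log2 fold change was 2.15 without control 2f and 2.10 without control 2m, and 1.33 without salt 2m. Without glucose 2f or 2m only sat1a.1 and oaz1b passed, without glucose 1m 4 genes did, and without salt 1m 11. Without salt 1m smox did not pass (0.069), and without control 1m slc25a12 did not (0.057). All 7 changes kept their direction in the 16 alternatives, of which sat1a.1 passed in 16, oaz1b in 12, smox and azin1b in 9, glsb and ppat in 8 and slc25a12 in 5.

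**Figure D5:**
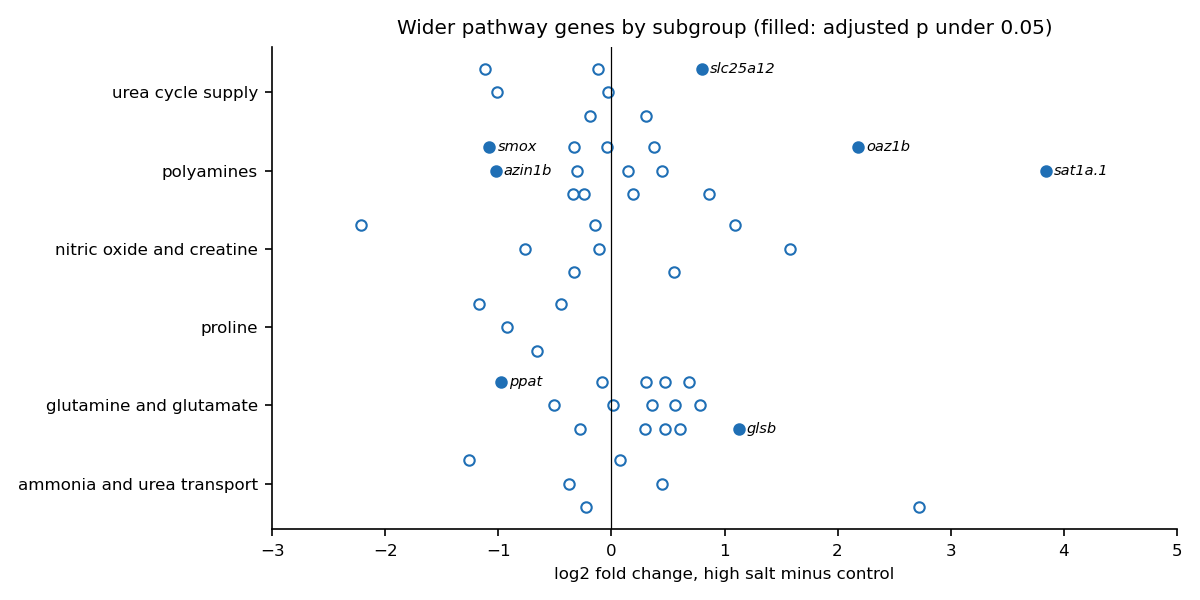
Log2 fold change of high salt minus control (x axis) for the 54 tested rows of the wider list, by subgroup (y axis, points offset for legibility), with filled points where adjusted p was under 0.05. The 4 named polyamine genes lie at -1.08, -1.02, 2.18 and 3.85, and the remaining filled points are slc25a12, glsb and ppat.

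In glucose none of the 54 rows passed against control by edgeR or DESeq2, and 3 had an unadjusted p under 0.05 in edgeR. The lowest p were those of gls2b, a glutaminase gene (-1.17 ± 0.30, edgeR adjusted p = 0.66), and ca5a, for a mitochondrial carbonic anhydrase that supplies bicarbonate (-0.68 ± 0.28, adjusted p = 0.76). Levels of gls2b were 12.8, 9.70 and 9.42 CPM in control and 4.34, 5.89 and 3.94 CPM in glucose, with no overlap. In salt both genes also lay below every control library without passing. The changes there were -0.51 ± 0.33 for gls2b and -1.01 ± 0.32 for ca5a (edgeR adjusted p = 0.365 and 0.092). Between glucose and salt 4 rows were lower and 3 higher in glucose, beside 3.05% and 1.9% of all genes tested. Of the 54 rows 1 passed without glucose 2f, glucose 2m or salt 2m, 2 without glucose 1m, 4 without control 2m, 12 without salt 1m and 13 without control 1m. With all libraries they were sat1a.1 (-4.03), oaz1b (-2.22), glsb (-1.50) and slc25a12 (-0.80), and ppat (1.02), azin1b (0.79) and ddah2 (0.98). The last encodes an enzyme known for degrading methylated arginine and stood at 48.9 ± 5.41 CPM in glucose (n = 3) and 24.8 ± 0.281 CPM in salt (n = 2, edgeR adjusted p = 0.030). Its difference from control in salt was -0.77 ± 0.20 (edgeR adjusted p = 0.058; 0.014 by DESeq2 and 0.044 with the replicate block).

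Over the 8 libraries, the genes whose log2 CPM followed arg2 most closely, among 9380 other genes with an ordinary symbol and a mean of at least 10 CPM, were pxk (Pearson r = 0.99), tacc1 (0.99) and the sterol demethylase gene cyp51 (0.98). A high r does not mean a change of like size. In salt against control the log2 fold changes were 0.90 for pxk, 0.52 for tacc1 and 2.34 for cyp51, beside 2.94 for arg2. Of these cyp51 stood at 14.8 to 18.9 CPM in control, 10.2 to 13.3 CPM in glucose, and 40.3 and 127.6 CPM in salt 1m and 2m. Like arg2, cyp51 had low glucose values and a high salt 2m value, which its choice by correlation over these libraries largely fixed. Closest to odc1 were vps8 (r = 0.99), a gene of endosomal tethering, apaf1 (0.98), which encodes the scaffold of the apoptosome, and gatad1 (0.98). The levels of apaf1 were 36.3 to 43.0 CPM in control, 35.4 to 37.5 CPM in glucose, and 19.8 and 16.3 CPM in salt. These coefficients are a description over 8 points in 3 groups, and the points share libraries and scaling.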

How the data were processed

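Bulk RNA from 8 embryo libraries was measured. The authors deposited raw counts per gene (whole numbers, 31953 genes). Per the submitters' processing notes the build was GRCz11 and the tools were, in no stated order, featureCounts 1.5.0-p3, edgeR 3.22.5, DESeq2, StringTie 1.3.3b and HISAT2 2.0.5. The labels' protocol described array hybridization, but the values are whole numbers and were treated as counts. Strand handling was not given in the sources used here. Gene lengths, coordinates and symbols come from the deposited table, with no genome to check them. A model overlapping oat on the same strand had 0 counts.

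Columns were matched to groups by name. The genes and lists were chosen with earlier results of these data known. Counts were filtered (filterByExpr, 20562 genes), TMM-scaled (levels are CPM of the scaled totals) and tested across all genes by the quasi-likelihood F-test of edgeR (4.0.16, under R 4.3.3) in 1 fit of 8 libraries (5 residual degrees of freedom, median biological coefficient of variation 0.28), with Benjamini-Hochberg adjustment and a threshold of 0.05. SE is the log2 fold change over the root of F. The method was tested on simulated counts drawn without suffix effects or outlying libraries, so that test does not cover those features of these data. All 10 genes were named, and of the wider list the 6 with the lowest p among those past the threshold, or the 2 lowest where none passed. For likeness log2 CPM had a prior count of 2. Alternatives were DESeq2 1.42.0, other scalings and filters, 2-group fits, left-out libraries and the suffix as a block.

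Whether the suffix pairs libraries was checked by correlating deviations from group means over the 18419 genes whose mean reached 1 CPM. The 7 pairs of libraries with the same suffix gave r of 0.158 to 0.522, all above 0.1, and by this rule the suffix was taken to pair libraries. Pairs of different suffix gave r of -0.511 to 0.218. Among them control 2f with salt 2m (0.218) and with glucose 2m (0.177) exceeded the 2f pair (0.158). The rule therefore does not show that 2f pairs libraries. With 2 salt libraries the deviations mirror each other, so the salt pairs are not separate support. The pairing comes from the data and not from the labels.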

Additional observations from a re-analysis of the deposited data

How the results depend on the processing

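In salt against control the count of all genes called was 1101. It was 2834 by DESeq2, 2550 with the suffix as a replicate block, 72 when only the 2 groups were fitted and 352 without control 1m and salt 2m, and 50 to 2355 when 1 library was left out. Of the 10 genes 3 passed, 1 with the 2-group fit, 1 without control 1m and salt 2m, and 0 to 3 with 1 library left out. Of the wider list 7 passed, 13 by DESeq2, 1 with the 2-group fit, 4 without that pair, and 1 to 11 with 1 left out. In glucose against salt 1017 genes were called, 2630 by DESeq2, 1857 with the block and 59 to 2343 with 1 library left out. The 10 genes gave 3 calls, and 0 to 3 with 1 left out, and the wider list gave 7, 16 by DESeq2 and 1 to 13 with 1 left out. In glucose against control 0 genes were called, 93 by DESeq2, 16 without a count filter, 36 with the block and 20 without control 1m and salt 2m. Of the 10 genes none changed sign among called values, and the block changed no call among them. Library totals alone moved the median difference of glucose to salt over all genes from 0.04 to 0.15. The causes were not tested. With 2 salt libraries, leaving 1 out assumes that the other varies like the remaining groups, and counts of arg1 near 3 limit what its values show.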

Other observations

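The following wider-list values were picked after they had been seen, and none passed edgeR's test against control. The ammonia channel gene rhcga had 3, 14 and 1 counts in control, 5, 3 and 2 in glucose, and 10 and 57 in salt 1m and 2m (edgeR adjusted p = 0.13 in salt, log2 2.72 ± 0.99). The agmatinase gene agmat, whose product yields putrescine from agmatine, had 16, 11 and 23 counts in control, 19, 14 and 19 in glucose, and 4 and 2 in salt (-2.21 ± 0.68, edgeR adjusted p = 0.086). The gene aldh18a1, for the first enzyme of proline synthesis from glutamate, stood at 24.3, 58.1 and 59.1 CPM in control and at 16.0 and 26.0 CPM in salt, with control 1m inside the salt range (-1.17 ± 0.39, adjusted p = 0.11). The gene nags, for the synthase of the activator of carbamoyl-phosphate synthetase, had 1 count in control 1m against 8 and 14 in control 2f and 2m, and 22, 10 and 21 in glucose.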
